A study of Mus musculus with 6 samples.

Results

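Ribosomal RNA (rRNA) fragments in mouse skin exosomes were followed through 182 of the 16310 RNAs counted. They were 180 rows of 5S rRNA and 1 row of 5.8S rRNA, taken by names that begin with n-R5, and Gm42418, the row of the 45S region. Exosomes are small vesicles that cells shed into their medium. Here 3 small RNA libraries were made from exosomes of epidermal stem cells (ESC) and 3 from those of dermal fibroblasts (Fb), both cultured from dorsal skin. The ESC were taken from C57BL/6 mice of 3 weeks and kept without serum, in keratinocyte medium. The Fb were taken at 14 weeks from db/db mice, which are obese and diabetic, although every library's strain label reads C57BL/6. The Fb grew in medium with 10% serum and then for 2 days in serum-free medium before collection. Cell type, donor strain, age and medium changed together between the groups and cannot be told apart. Cells were at passage 0 to 1, and the labels call the libraries biological replicates without naming the animals.

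A ribosome holds 4 rRNAs. 18S, 5.8S and 28S are cut from the 45S precursor, which RNA polymerase I transcribes and which also carries external and internal transcribed spacers that are discarded. 5S is transcribed apart from them by RNA polymerase III, from a tandem array, and the genome holds many diverged copies of it. Vesicle and extracellular RNA is known to contain rRNA fragments. These libraries were size-selected at 140 to 300 bp, so of the long rRNAs only fragments could enter. 28S was not analysed here.

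All 181 rows named n-R5 carry the rRNA class in GENCODE M21 (GRCm38, the build of the files). The 5S rows lie on 21 chromosomes and have 149 distinct sequences of 79 to 132 bases, of which 81 rows are 119 bases long. In an array on chromosome 8, between 123538786 and 123622046, 41 of them lie on the minus strand. The commonest sequence is shared by 25 rows, all of 119 bases. Distances of the other copies were measured from it, as the number of edits (bases changed, added or lost) between them. Of the 5 rows with the largest mean share of 5S reads, n-R5s100 carries it. n-R5s136 is 1 edit from it, n-R5s2 and n-R5s33 are 4 edits and n-R5s185 is 5 edits from it, and all 5 rows are 119 bases long. n-R5s100 and n-R5s136 lie on chromosome 8 within the array, n-R5s2 on chromosome X, n-R5s33 on chromosome 16 and n-R5s185 on chromosome 4. n-R5s193, a row of 109 bases on chromosome 4 chosen after its values were seen, is 18 edits away.

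A short read from a stretch that rows share fits many of them equally well. Reads of single 5S rows are therefore uncertain, and the comparisons below rest on the sum of the 180 rows. n-R5s136 and n-R5s100 lie opposite Gm20388, n-R5s185 lies within Tmem38b and n-R5s33 within Lrch3, all protein-coding genes. n-R5s2 overlaps no other annotated gene. n-R5s193 overlaps Gm47301, annotated as a miRNA on the same strand, so its reads may belong to either annotation.

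Gm42418 is annotated as a long intergenic non-coding RNA at chr17:39846958-39848788 on the plus strand, a single exon of 1831 bases, but its sequence is that of 18S rRNA and the spacer after it. CT010467.1, an rRNA row outside the chosen names, covers the same place on the minus strand. The reverse complement of its longer transcript, 1849 bases, was taken as 18S, without a separate reference sequence. The first 1244 bases of Gm42418 match it to the last base. They are 67.3% of that length, from its base 606 to its end, and are followed by 587 bases of the first internal transcribed spacer. The start of 18S, read from CT010467.1, and the end of 18S within Gm42418 are printed to show this, with 18S bases in capitals in the second line.
18S start, chr17:39846353-39846412, plus strand: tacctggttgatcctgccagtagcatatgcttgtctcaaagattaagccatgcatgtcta
18S end in Gm42418, chr17:39848142-39848261, plus strand: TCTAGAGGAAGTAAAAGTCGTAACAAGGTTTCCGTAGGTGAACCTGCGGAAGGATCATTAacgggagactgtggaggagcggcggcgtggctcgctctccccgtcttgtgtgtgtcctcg

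The use of strand in counting is not given in the sources used here, so reads of Gm42418 and of the rows opposite it, CT010467.1 and AY036118, cannot be told apart with certainty. The 5.8S row, n-R5-8s1, is 148 bases long and lies at 73533403 to 73533550 of chromosome 18 on the minus strand.

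Reads assigned to annotated RNAs numbered 9894485 to 11149046 in the ESC and 6914504 to 8691350 in the Fb libraries. Outside tRNA rows they numbered 2037742 to 2243038 in ESC but only 831002 to 1690505 in Fb libraries, and mature miRNAs held 13.3% to 14.7% of all reads in ESC against 0.613% to 2.05% in Fb libraries. Any share of reads depends on these totals, so several totals are given below. The library labels were checked on miRNAs. The 4 epithelial markers (miR-200c-3p, miR-200b-3p, miR-205-5p and miR-203-3p) summed to 4.98% to 6.36% of miRNA reads in ESC against 0.580% to 1.32% in Fb libraries. The 4 mesenchymal markers (miR-143-3p, miR-145a-5p, miR-199a-5p and miR-214-3p) summed to 0.0128% to 0.0137% and 8.31% to 11.0%. The 5 blood-cell markers summed to at most 0.000338% in ESC and 0.00758% in Fb libraries, with miR-142a-3p at 0 reads in all 6. The 3 muscle markers summed to 0.0123% to 0.0161% and 0.0466% to 0.171%, and the endothelial miR-126a-3p was at most 0.00168% in any library.

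Together the rRNA rows took a larger part of all assigned reads in the Fb libraries. They held 0.152%, 0.258% and 0.132% of all assigned reads in ESC replicates 1, 2 and 3 and 0.699%, 0.646% and 0.571% in Fb replicates 1, 2 and 3. Every Fb library lay above every ESC library, and the mean was 3.53-fold higher (0.181% ± 0.0675 against 0.639% ± 0.0640, SD, n = 3 each; exact permutation p = 0.1, adjusted exact permutation p = 0.15 over 9 comparisons). With 3 against 3 libraries no exact two-sided p can go below 0.1. As background, 8.82% of 2981 RNAs tested were higher in every Fb library by this measure and 22.5% in every ESC library. Outside tRNA rows the sum was 5.19-fold higher in Fb exosomes, again without overlap (exact permutation p = 0.1, adjusted exact permutation p = 0.15). Outside tRNA and mature miRNA rows it held 2.34%, 3.76% and 2.00% in ESC and 7.14%, 3.71% and 4.14% in Fb replicates 1 to 3. By that total the ratio of means fell to 1.85 and the groups overlapped, with Fb replicate 2 just below ESC replicate 2 (exact permutation p = 0.2). Within Fb the share of all reads varied 1.22-fold, but its parts did not move together. As shares of all reads, Fb replicate 1 had the most 5S and the least 5.8S and Gm42418 of the Fb libraries, and Fb replicate 2 the reverse. In bulk vesicle RNA, fewer vesicles with an RNA and less of it per vesicle cannot be told apart.

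**Figure D1:**
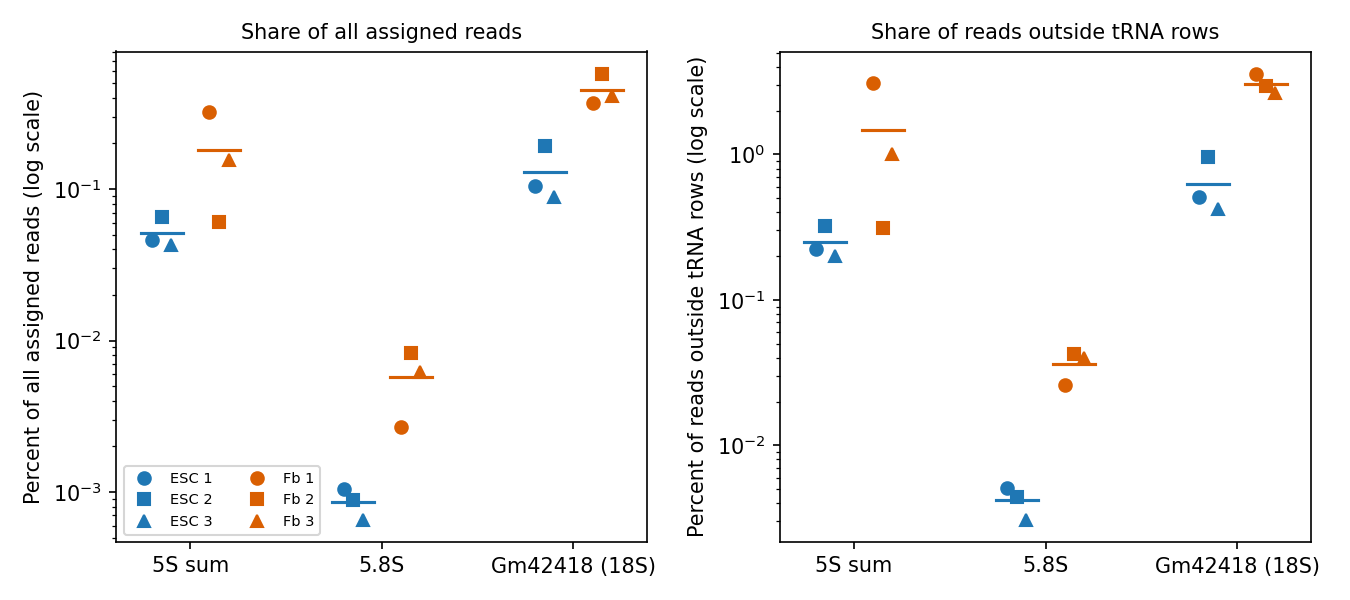
Percent of all assigned reads (left) and of reads outside tRNA rows (right) held by the 5S sum, the 5.8S row and Gm42418, on log axes; each point is 1 library and each bar a group mean. For 5.8S and Gm42418 all Fb libraries lie above all ESC libraries, while for 5S Fb replicate 2 lies among the ESC libraries.

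Gm42418, which holds most of 18S, the RNA of the small ribosomal subunit, had more reads than the sum of the named 5S rows or the 5.8S row in every library. With the further 5S-like rows described below, 5S had 35460 reads in Fb replicate 1, more than Gm42418 there. It held 0.105%, 0.192% and 0.0892% of all assigned reads in ESC replicates 1 to 3, from 10367, 21406 and 9249 reads. In Fb replicates 1 to 3 it held 0.373%, 0.577% and 0.409%, from 29790, 50130 and 28293 reads. The groups did not overlap, and the lowest Fb library stood above the highest ESC library, ESC replicate 2. Its mean share was 3.52-fold higher in Fb exosomes (0.129% ± 0.0554 against 0.453% ± 0.109, SD, n = 3; exact permutation p = 0.1, adjusted exact permutation p = 0.15). Counting error was far smaller than these gaps, with exact 95% binomial intervals of 0.189% to 0.195% in ESC replicate 2 and 0.369% to 0.377% in Fb replicate 1. Without ESC replicate 2 the ratio was 4.67.

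Of reads outside tRNA rows, Gm42418 held 0.509%, 0.954% and 0.419% in ESC and 3.58%, 2.97% and 2.64% in Fb replicates 1 to 3. The groups were again apart, with a ratio of means of 4.88 (exact permutation p = 0.1, adjusted exact permutation p = 0.15), against a background of 6.83% of 2824 RNAs higher in every Fb library and 13.2% higher in every ESC library. ESC libraries hold more miRNA, so the remaining total was also used without mature miRNAs. There Gm42418 held 1.61%, 2.80% and 1.35% in ESC and 3.81%, 3.31% and 2.97% in Fb replicates 1 to 3. The groups still did not overlap, but the ratio of means fell to 1.75, where 3.66% of 2517 RNAs were higher in every Fb library and 33.9% in every ESC library. The direction was therefore shared by the 3 totals, while the size changed by more than 1.5 times between them.

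5.8S, the short RNA that pairs with 28S in the large subunit, was counted through n-R5-8s1 alone, and this row had few reads. The row lies on another chromosome than Gm42418. How reads that fit other 5.8S copies were divided was not tested, so whether 5.8S itself was rare cannot be judged. n-R5-8s1 had 103, 98.9 and 68.1 reads in ESC replicates 1 to 3 and 216, 719 and 427 in Fb replicates 1 to 3, from smaller Fb libraries. These were 0.00104%, 0.000887% and 0.000657% of all reads in ESC and 0.00270%, 0.00827% and 0.00618% in Fb exosomes. All Fb libraries were higher, and the ratio of means was 6.63 (exact permutation p = 0.1, adjusted exact permutation p = 0.15). Outside tRNA rows the ratio was 8.63, and outside tRNA and miRNA rows it was 3.09, with no overlap under either total. By these totals 6.83% of 2824 and 3.66% of 2517 RNAs were higher in every Fb library. In every ESC library 13.2% and 33.9% were higher. Per 1000 reads of Gm42418 there were 9.95, 4.62 and 7.37 reads of 5.8S in ESC and 7.25, 14.3 and 15.1 in Fb replicates 1 to 3. This ratio overlapped between the groups, since Fb replicate 1 lay among the ESC libraries.

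5S, which joins the large subunit with its own protein partners, did not separate the groups. The 180 rows summed to 4592, 7252 and 4417 reads in ESC replicates 1 to 3 and to 25853, 5307 and 10791 in Fb replicates 1 to 3. They held 0.0464%, 0.0651% and 0.0426% of all reads in ESC and 0.323%, 0.0611% and 0.156% in Fb exosomes. Fb replicates 1 and 3 were above all ESC libraries, but Fb replicate 2 lay below ESC replicate 2, whose exact 95% interval (0.0636% to 0.0666%) did not reach that of Fb replicate 2 (0.0594% to 0.0627%). The mean was 3.51-fold higher in Fb exosomes, a difference smaller than the Fb spread (0.0513% ± 0.0120 against 0.180% ± 0.133, SD, n = 3; exact permutation p = 0.2, adjusted exact permutation p = 0.225). Without Fb replicate 1 the ratio was 2.11.

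Between single Fb libraries 5S ranged 5.30-fold, where Gm42418 ranged 1.55-fold and 5.8S 3.06-fold. In ESC libraries 5S ranged 1.53-fold, Gm42418 2.15-fold and 5.8S 1.59-fold. Outside tRNA rows 5S held 0.225%, 0.323% and 0.200% in ESC and 3.11%, 0.314% and 1.01% in Fb replicates 1 to 3, a 9.91-fold range within Fb. The ratio of means by that total was 5.92 (exact permutation p = 0.2, adjusted exact permutation p = 0.225), and 2.64 without Fb replicate 1. Outside tRNA and miRNA rows it held 0.712%, 0.949% and 0.644% in ESC and 3.31%, 0.351% and 1.13% in Fb, so that Fb replicate 2 was below every ESC library. By this total the ratio of means was 2.08 (exact permutation p = 0.6). Fb replicate 1, the library with the most 5S, also had the largest tRNA share, 89.6% of reads against 80.5% and 84.5% in Fb replicates 2 and 3, and the smallest miRNA share, 0.613% against 2.05% and 1.72%. The part of these differences in the 5S value was not tested.

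**Figure D2:**
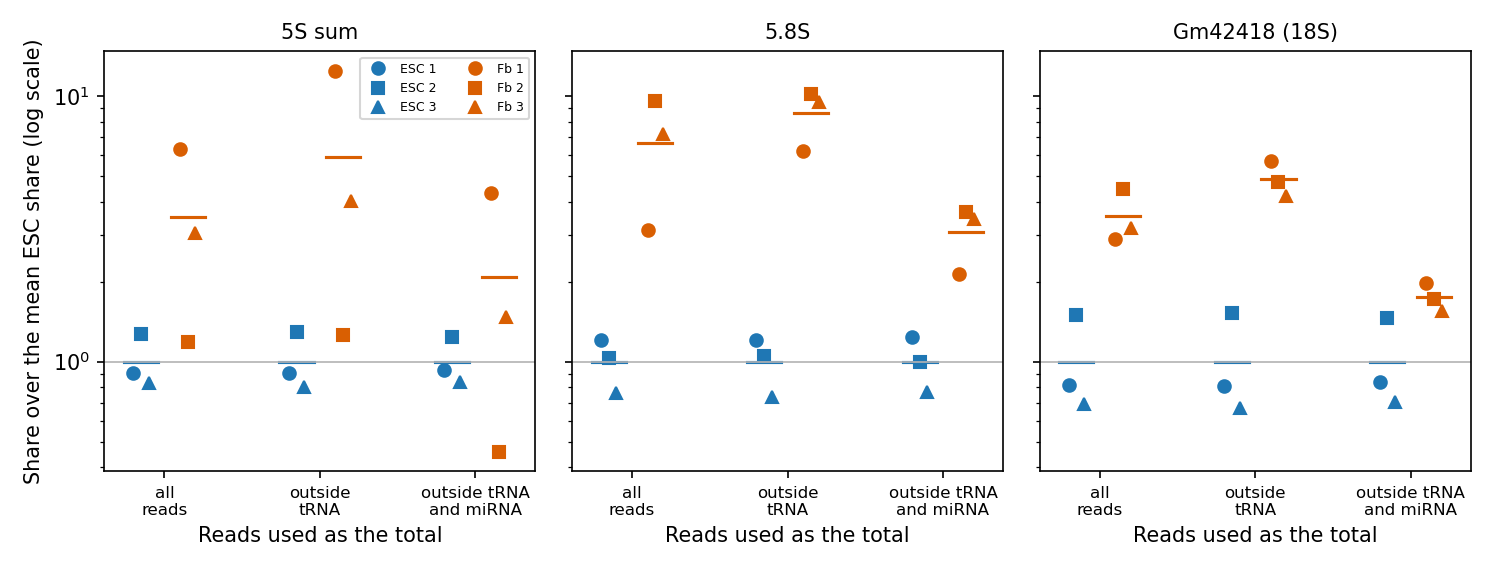
Share of each library divided by the mean ESC share, on a log axis, for the 5S sum, 5.8S and Gm42418 and for 3 totals: all reads, reads outside tRNA rows, and reads outside tRNA and mature miRNA rows. Points are libraries, bars are group means and the grey line is the ESC mean; Gm42418 goes from 3.52-fold and 4.88-fold to 1.75-fold, and 5S of Fb replicate 2 falls below the ESC libraries under the last total.

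The number of Gm42418 reads per 5S read does not depend on the library total. It was 2.26, 2.95 and 2.09 in ESC replicates 1 to 3 and 1.15, 9.45 and 2.62 in Fb replicates 1 to 3. The ESC libraries lay close together, with Fb replicate 3 among them, Fb replicate 1 below and Fb replicate 2 above. The mean log2 ratio did not differ beyond this spread (exact permutation p = 0.8, adjusted exact permutation p = 0.8). Its sign turned without Fb replicate 2, from 0.34 to -0.47 (Fb minus ESC).

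Reads of 5S were concentrated in few rows. Of the 180 rows, 151 had reads in at least 1 library, 76 in all 6 and 29 in none, and 68 reached 10 reads in some library. On the mean of the 6 libraries, 4 rows held over 50% of 5S reads and 12 rows over 90%. n-R5s2, a row of chromosome X, was high in every library, at 20.4%, 23.3% and 24.8% of 5S reads in ESC and 12.3%, 15.6% and 22.3% in Fb replicates 1 to 3. n-R5s100, with the commonest sequence, held 14.3%, 17.6% and 7.03% in ESC and 1.31%, 7.95% and 7.72% in Fb exosomes. The groups overlapped for both rows, and no test was made on shares of single rows.

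Other rows were present in some libraries and nearly absent in others of the same group. n-R5s136, which is 1 edit from the commonest sequence, had 779, 2039 and 1094 reads in ESC replicates 1 to 3 and 4128 in the first Fb library, against 1.65 and 0.413 in the other two Fb libraries. n-R5s185 had 666 and 382 reads in ESC replicates 1 and 3 and 0.492 in ESC replicate 2, against 3265, 560 and 1315 in Fb replicates 1 to 3. n-R5s33 had 36.4, 0.126 and 0.161 reads in ESC and 1897, 1173 and 2373 in Fb libraries. It was the 1 row of these 5 whose reads were higher in every Fb library.

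Further rows named after their values were seen behaved likewise. n-R5s193 had 5115 reads in Fb replicate 1 and 9.62 to 46.5 in the other libraries. n-R5s115 had 886 and 2012 reads in Fb replicates 1 and 3 and at most 11.7 elsewhere. n-R5s109 had 871 reads in ESC replicate 3 but 2.39 and 64.5 in ESC replicates 1 and 2. n-R5s28 had 706 and 404 reads in ESC replicates 1 and 2 but 8.06 in ESC replicate 3. Whether these jumps lie in the RNA or in how reads that fit several rows were divided was not tested.

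**Figure D3:**
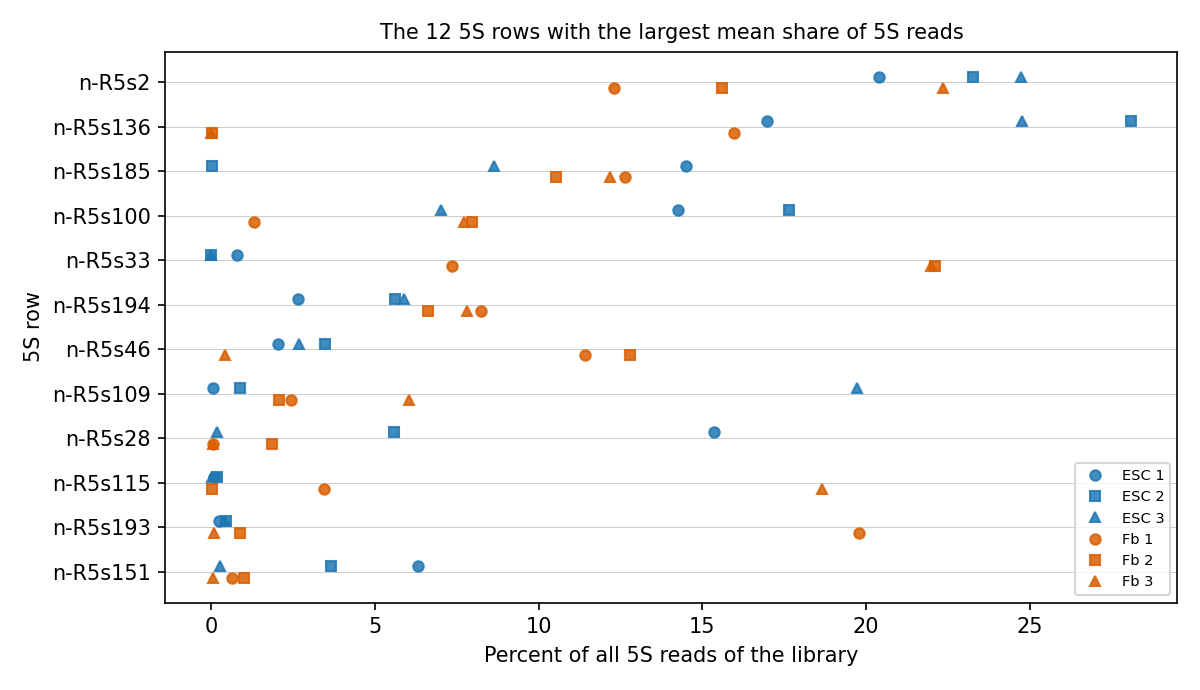
Percent of the 5S reads of each library that fell in each of the 12 rows with the largest mean share; points are libraries. n-R5s2 is at 12.3% or more in all 6, while n-R5s136, n-R5s193 and n-R5s115 are near 0 in some libraries and above 15% in others.

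Rows were grouped by the number of edits that turn their sequence into the commonest one. The 25 rows with 0 edits held 15.6%, 21.6% and 7.88% of 5S reads in ESC and 1.34%, 8.86% and 7.84% in Fb replicates 1 to 3. The 10 rows with 1 to 3 edits held 18%, 30.8% and 45.3% in ESC and 23.2%, 5.34% and 26.0% in Fb exosomes. The 19 rows with 4 to 10 edits held 40.1% to 61.1% in the ESC libraries and 41.5% to 64.9% in the Fb libraries. The 126 rows with over 10 edits held 5.26%, 7.50% and 5.74% in ESC and 34.0%, 22.8% and 1.19% in Fb replicates 1 to 3. Among the named rows the far copies thus made up more of the 5S reads in Fb replicates 1 and 2 than in any ESC library, and less in Fb replicate 3. The 5S-like rows outside the n-R5 names were left out of these classes. Gm26197, a row outside the names with 33 edits, had 8789 reads in Fb replicate 3, so the low share there holds for the named rows only.

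The rows were also divided by their ends and by place. The 50 rows with the last 15 bases of the commonest sequence held 94.3%, 91.7% and 93.9% of 5S reads in ESC and 65.9%, 72.6% and 98.6% in Fb replicates 1 to 3. The 41 rows with its first 15 bases held 70.4%, 81.7% and 78.6% in ESC and 60.7%, 54.8% and 59.8% in Fb exosomes, where the groups did not overlap. The 41 rows of the chromosome 8 array held 34.1%, 53.4% and 53.9% in ESC and 24.6%, 14.4% and 33.9% in Fb exosomes, also without overlap, although ESC replicate 1 and Fb replicate 3 were close. These are sums over rows with n-R5 names alone, whose reads were divided by an unknown rule, so they are given without a test.

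**Figure D4:**
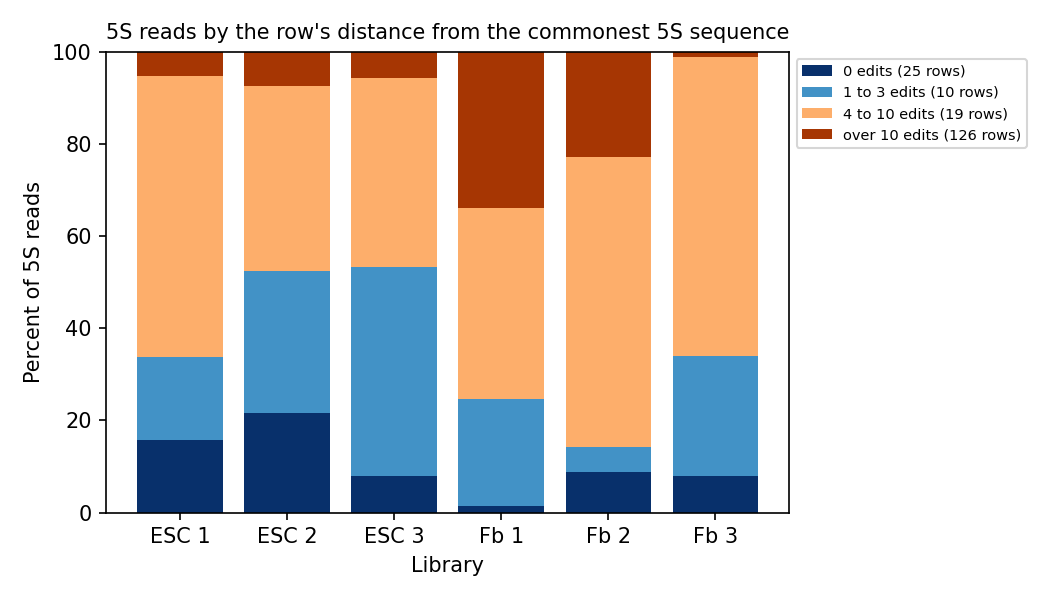
Percent of the 5S reads of each library in rows with 0, 1 to 3, 4 to 10 and over 10 edits from the commonest 5S sequence. Bars are single libraries and add up to all reads of the 180 named 5S rows, without the other 5S-like rows. Rows with over 10 edits hold 34.0% and 22.8% in Fb replicates 1 and 2 and 1.19% to 7.50% in the other 4 libraries.

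The n-R5 names do not cover all 5S-like rows. A further 31 rRNA rows share 20 bases in a row with the commonest sequence, 7 of them with all of it. The 180 rows were taken by name instead, and 101 of them share such a stretch. Beside every 100 reads of the 180 named rows the 31 rows held 8.60, 13.7 and 16.0 reads in ESC and 37.2, 54.7 and 83.0 in Fb replicates 1 to 3. Gm26197, a diverged row of chromosome 14 with 33 edits, alone had 90.8, 252 and 118 reads in ESC and 3140, 941 and 8789 in Fb libraries. Rn5s, one of the 7, had 2.64, 12.1 and 1.56 reads in ESC and 0.426, 2.00 and 0.503 in Fb libraries and was not tested singly. With these rows added, a choice made after seeing the data, 5S held 0.0504%, 0.0740% and 0.0494% of all reads in ESC and 0.444%, 0.0945% and 0.286% in Fb replicates 1 to 3. The groups then no longer overlapped, and the ratio of means was 4.74 (exact permutation p = 0.1).

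The other rows of the 45S locus had smaller ratios between the groups than Gm42418. CT010467.1, antisense to 18S, held 0.0492%, 0.0590% and 0.0464% of all reads in ESC and 0.0749%, 0.131% and 0.0717% in Fb replicates 1 to 3, without overlap and with a ratio of means of 1.79. Gm26917, which ends 11 bases before 18S, on the side of the external spacer, held 0.00351%, 0.00364% and 0.00322% in ESC and 0.00741%, 0.00614% and 0.00521% in Fb exosomes. Its groups did not overlap either, and the ratio of means was 1.81. AY036118, antisense within 18S, had 15.1 to 27.3 reads in ESC and 19.6, 3.01 and 3.61 in Fb libraries. By edgeR's quasi-likelihood test, described below, neither Gm26917 (log2 fold change 2.70, SE 0.99, adjusted p = 0.127) nor AY036118 (0.03, SE 0.46, adjusted p = 0.984) passed.

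Reads of Gm42418 per read of CT010467.1 were 2.13, 3.25 and 1.92 in ESC and 4.98, 4.41 and 5.71 in Fb replicates 1 to 3. The 2 rows share 1244 bases of 18S, so this ratio moves with which part or strand of 18S the reads came from or with how shared reads were divided, and these cannot be told apart here. With the 4 rows of the locus summed, a choice made after seeing the data, the share was 0.158%, 0.255% and 0.139% of all reads in ESC and 0.455%, 0.714% and 0.486% in Fb exosomes. All Fb libraries remained above all ESC libraries, with a ratio of 3.00 (exact permutation p = 0.1).

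**Figure D5:**
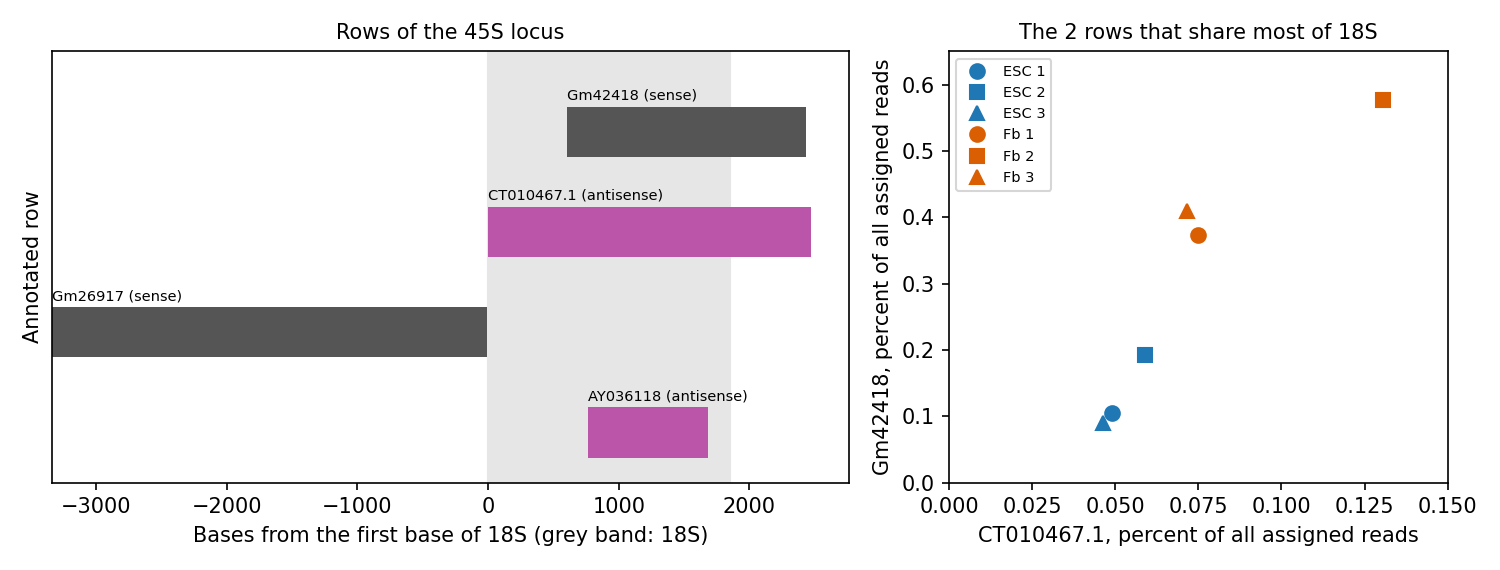
Left, the 4 annotated rows of the 45S locus in bases from the first base of 18S, dark bars on the strand of the rRNA and purple bars opposite to it. Right, the share of all reads of Gm42418 against that of CT010467.1, each point 1 library, where the Fb libraries lie at 0.373% to 0.577% for Gm42418 and the ESC libraries at 0.0892% to 0.192%.

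In a fit of the whole table, with the 5S rows summed, 1 of the 3 rRNA entries passed. By the quasi-likelihood test of edgeR, adjusted over 2981 RNAs (Benjamini-Hochberg), the 5.8S row was higher in Fb exosomes (log2 fold change 4.99, SE 1.31, adjusted p = 0.0337). Gm42418 (3.91, SE 1.50, edgeR adjusted p = 0.148) and the 5S sum (2.99, SE 1.14, edgeR adjusted p = 0.144) did not pass. As background, 8.19% of the RNAs passed as higher in Fb and 3.69% as higher in ESC exosomes, 244 and 110 RNAs. DESeq2 called all 3 entries (log2 fold changes 5.05, 3.97 and 3.03; DESeq2 adjusted p = 2.28e-05, 0.00937 and 0.00593 for 5.8S, Gm42418 and 5S), but it also called 12.3% of the RNAs as higher in Fb and 5.7% as higher in ESC exosomes. The 5.8S call depended on single libraries. Its edgeR adjusted p was 0.164, 0.180 and 0.169 without ESC replicates 1, 2 and 3, 0.0618 without Fb replicate 2 and 0.0960 without Fb replicate 3, but 0.000263 without Fb replicate 1. Without Fb replicate 1 the 5S sum and Gm42418 also passed (edgeR adjusted p = 0.00465 and 0.00315).

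The fitted folds are larger than the ratios of shares because of the scaling. The TMM factors, which correct for composition, were 1.62 to 1.63 in ESC libraries and 2.17, 0.232 and 0.464 in Fb replicates 1 to 3. With library totals alone the log2 fold changes were 2.74 for 5.8S (SE 0.79, edgeR adjusted p = 0.0417), 1.83 for Gm42418 (SE 0.56, edgeR adjusted p = 0.0566) and 1.82 for 5S (SE 0.68, edgeR adjusted p = 0.129). The median of all RNAs moved from -0.07 to -0.80 with this change, and the calls from 244 higher in Fb and 110 in ESC to 147 (4.93%) and 209 (7.01%). Relative to that median the 3 entries stood 5.05, 3.98 and 3.06 higher with TMM factors and 3.55, 2.63 and 2.62 higher with totals alone.

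With the 5S rows entered singly, 19 of 180 passed the filter on low counts. By edgeR's quasi-likelihood test 7 of them passed as higher in Fb exosomes, 0 as higher in ESC and 12 did not pass, with a median log2 fold change of 3.77. In that fit 8.2% of 2999 RNAs passed as higher in Fb. Some rows passed the filter mainly through Fb libraries, such as n-R5s33 and n-R5s115, so the count by direction is partly fixed by the filter and is given as a description. These 19 rows share reads and are no independent support for one another.

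RNAs that make ribosomes were set beside them, from a list chosen for this purpose. Of 12 small RNAs that help to cut the rRNA precursor, 10 were in the files and 5 could be tested. By edgeR's quasi-likelihood test 3 rose in Fb exosomes, 0 in ESC and 2 did not pass, with a median log2 fold change of 3.33, where 8.19% of all RNAs tested passed as higher in Fb and 3.69% as higher in ESC exosomes. Snord118 and Snora73a stayed under 10 reads in every ESC library and entered the test through the Fb libraries alone, so their direction was fixed by the filter. Snord118 (U8), which is needed to release 5.8S and 28S, had 3.75, 6 and 5.42 reads in ESC and 18, 261 and 188 in Fb replicates 1 to 3 (log2 fold change 7.71, SE 1.62, edgeR adjusted p = 0.0157). Like 5.8S it was lowest in Fb replicate 1 among the Fb libraries. Snora73a (U17), which acts in 18S formation, was at 0.675 ± 0.167 CPM (counts scaled to an equal total of assigned reads) in ESC and 2.81 ± 1.16 in Fb exosomes (SD, n = 3; edgeR log2 fold change 3.63, SE 0.76, adjusted p = 0.0157).

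Snord14d (U14), which also acts on 18S, was at 2.88 ± 0.357 and 6.32 ± 1.49 CPM (SD, n = 3; edgeR log2 fold change 2.98, SE 0.81, adjusted p = 0.0394). Snord14c, another U14 copy, was at 2.86 ± 0.893 and 0.543 ± 0.472 CPM and did not pass (edgeR log2 fold change -1.01, SE 0.91, adjusted p = 0.606), so the division of reads between these copies is uncertain. Snord14e, Snora73b and Snord22 reached 14, 19.2 and 17 reads at most, overlapped between the groups and were not tested. Rmrp, the RNA of the enzyme that cuts the first internal spacer, had 75.4, 55.5 and 73.6 CPM in ESC and 437, 143 and 202 in Fb replicates 1 to 3. Its groups did not overlap, but it missed the threshold (edgeR log2 fold change 3.33, SE 1.02, adjusted p = 0.0653). Like 5S it was highest in Fb replicate 1 and lowest in Fb replicate 2 among the Fb libraries. Snora73a (4.00, 2.75 and 1.69 CPM in Fb replicates 1 to 3) and Snord14d (7.41, 6.93 and 4.62) did not follow Gm42418. Both were highest in Fb replicate 1, where Gm42418 had its lowest Fb share of all reads. Outside tRNA rows Gm42418 was instead highest in Fb replicate 1 (3.58%, 2.97% and 2.64% in Fb replicates 1 to 3). The mismatch is therefore stated for shares of all reads only.

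Among 9 RNAs made by RNA polymerase III outside tRNA, the polymerase of 5S, 8 were tested. By edgeR's quasi-likelihood test 0 rose in Fb exosomes, 1 was higher in ESC and 7 did not pass, with a median log2 fold change of 1.37, against the same 8.19% and 3.69% of all RNAs. Rmrp is in this list too. The one that passed, the vault RNA Vaultrc5, was at 433 ± 173 CPM in ESC and 18.1 ± 14.5 in Fb exosomes (SD, n = 3; edgeR log2 fold change -3.44, SE 0.97, adjusted p = 0.0467). The Y RNA Rny1 held 6583, 6314 and 5614 CPM in ESC and 1926, 1623 and 2656 in Fb libraries, the opposite direction to Gm42418. Its fitted log2 fold change was 0.27 (SE 1.24, edgeR adjusted p = 0.952), so its direction turned with the TMM factors. Of the others, Rn7s1 (log2 fold change 2.90, SE 1.13), Rn7sk (2.17, SE 1.27), Rny3 (2.14, SE 0.77), Rpph1 (0.60, SE 0.73) and Rn7s2 (-2.76, SE 0.83) had edgeR adjusted p = 0.156, 0.374, 0.117, 0.726 and 0.0614. Rn7s1 had 256, 35.7 and 316 reads in ESC replicates 1 to 3, where Rn7s2 had 57.8, 352 and 65.8. How reads were divided between these rows was not tested, so their opposite signs are uncertain.

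Mitochondrial rRNA, which comes from the mitochondrial genome and not from the 45S precursor, overlapped between the groups. mt-Rnr1 (12S) was at 14.3, 18.2 and 10.4 CPM in ESC and 18.6, 6.79 and 6.76 in Fb replicates 1 to 3. mt-Rnr2 (16S) was at 19.1, 14.0 and 11.9 in ESC and 13.0, 18.5 and 10.2 in Fb libraries. Neither passed (edgeR log2 fold changes 0.99, SE 0.68, and 1.97, SE 0.95; adjusted p = 0.466 and 0.263), and the means in CPM were lower in Fb exosomes, opposite to the fitted sign.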

How the data were processed

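For each library the authors deposited a table of estimated counts per non-coding RNA, unscaled. The submitters' processing notes name FastQC, cutadapt and the build GRCm38. For the aligner, the counter, the use of strand and the division of reads that fit several rows, the method is not given in the sources used here. Sequences, classes and positions came from GENCODE M21. Sequences of 5S rows are not reported here. The members and lists were chosen with earlier results of these data known.

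5S rows were summed, and the estimated counts were rounded before the count models. Shares were tested by exact permutation, two-sided, in scipy 1.17.1, with Benjamini-Hochberg adjustment over 9 comparisons. The whole table was fitted with edgeR 4.0.16 in R 4.3.3 (TMM factors, minimum count 10, minimum total 15, group as the only term, adjusted p of 0.05), positive meaning higher in Fb exosomes. Alternatives used DESeq2 1.42.0, limma 3.58.1, other scalings, filters and sums, and each library left out. Reads carry no molecular identifiers, so the exact Clopper-Pearson intervals cover counting error only. No label names the animal behind a library, so p-values reflect spread among libraries that may be technical. Named single 5S rows are the 5 with the largest mean share of 5S reads, and others are named as chosen later. Each member of the context lists with 10 reads in some library is named. Edits between sequences were counted with edlib.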

Additional observations from a re-analysis of the deposited data

How the results depend on the processing

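For the 5S sum, 5.8S, Gm42418 and all rRNA rows together, every ratio of shares (Fb over ESC) stayed above 1 under all alternatives run. Libraries were not left out under the total outside tRNA and mature miRNA rows. There 5S held 0.351% and 1.13% in Fb replicates 2 and 3 against 0.644% to 0.949% in ESC libraries. Without Fb replicate 1 the Fb mean by that total thus falls slightly below the ESC mean of 0.768%. The higher 5S mean in Fb exosomes rests on Fb replicate 1 there. Leaving out each library in turn gave ratios of 2.11 to 4.67 for 5S, 5.15 to 8.38 for 5.8S, 3.04 to 4.67 for Gm42418 and 3.11 to 4.49 for all rRNA rows as shares of all reads. Outside tRNA rows these were 2.64 to 8.25, 7.63 to 9.84, 4.19 to 6.60 and 3.98 to 6.72. The log2 ratio of Gm42418 to 5S (Fb minus ESC) ranged from -0.47, without Fb replicate 2, to 1.05, and was -0.14 with the other 5S-like rows added. In the whole-table fits, DESeq2 called Gm42418 (log2 fold change 3.97, adjusted p = 0.00937) and 5S (3.03, adjusted p = 0.00593), and a minimum count of 50 called Gm42418 (2.24, edgeR adjusted p = 0.0407). The 5.8S call was lost by limma-trend (3.98, limma adjusted p = 0.101). Over all alternatives the adjusted p ranged from 2.28e-05 to 0.218 for 5.8S, from 0.00315 to 0.481 for Gm42418 and from 0.00465 to 0.501 for 5S. Leaving out each library gave log2 fold changes of 2.72 to 4.44 for Gm42418, 3.76 to 5.55 for 5.8S and 2.68 to 3.27 for 5S. The number of RNAs that passed was 354 as reported, 538 by DESeq2 and 687 with no count filter. It ranged from 0 to 582 when each library was left out. It was 0 by edgeR without ESC replicate 2 and without ESC replicate 3, where 578 and 619 RNAs had an unadjusted p under 0.05. It was 11 without ESC replicate 1 and 100 without Fb replicate 3. No other tool was run on those subsets. The causes were not tested.

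The replicate numbers were shared by the groups only as numbers. The correlations of same-numbered libraries' deviations from their group means were 0.01, 0.09 and -0.01. With the replicate number as a block 184 RNAs passed, and 5.8S missed the threshold (4.26, edgeR adjusted p = 0.218). Not every library correlated best with its own number: ESC replicates 1 and 2 and Fb replicate 2 did, the others did not. 5.8S had the fewest reads of the rRNA entries, at most 103 in an ESC library. Even so, the exact 95% intervals of its share reached 0.00126% at most in ESC and began at 0.00235% in Fb libraries.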

Other observations

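The counts of the identical 5S rows were unequal in a regular way. Of the 25 rows with the commonest sequence, 24 had the same count as one another in every library, within 0.0001 reads. That count was 2.64, 12.1 and 1.56 in ESC replicates 1 to 3 and 0.426, 2.00 and 0.503 in Fb replicates 1 to 3. n-R5s100, the copy at the lowest coordinate of the array, exceeded it by a whole number of reads in all 6 libraries, by 652, 1267 and 309 in ESC and by 337, 420 and 833 in Fb replicates 1 to 3. Gm22109, another row of the array with the same sequence, had 95.2, 272 and 128 reads in ESC and 2436, 668 and 45.5 in Fb replicates 1 to 3. Since the sequences of these rows do not differ over their annotated length, counts of single copies in these tables are not counts of separate transcripts.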
